A study of Homo sapiens with 8 samples.

Results

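The genes described here are 42 targets of the transcription factor NRF2 and genes of glutathione metabolism, chosen by symbol from a fixed list. All 42 were found among the 58828 genes of both count tables, and all 42 passed the filter on low counts in the fit of all 8 libraries, GSTP1 and AKR1B10 through their DU145 counts only. They were placed in 9 groups by role: regulators (NFE2L2, KEAP1, MAFG, MAFF), heme (HMOX1, BLVRB, SLC48A1), glutathione synthesis (GCLC, GCLM, SLC7A11), glutathione use (GSR, GPX2, MGST1, GSTM3, GSTP1, GSTA4), thioredoxin (TXN, TXNRD1, SRXN1), NADPH supply (PGD, TALDO1, TKT, ME1, IDH1), quinone and carbonyl reduction (NQO1, AIFM2, CBR1, CBR3, AKR1B1, AKR1B10, AKR1C1, AKR1C2, AKR1C3), conjugation and export (EPHX1, UGDH, ABCC1, ABCC2, ABCC3) and other targets (OSGIN1, PIR, TRIM16L, ABHD4).

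The study asked how PAGE4, a cancer/testis protein, acts in prostate cancer cells under oxidative stress. Bulk RNA-seq was done on 22RV1 and DU145, cell lines grown from human prostate carcinoma. Each line had been transduced with a lentivirus carrying either the empty doxycycline-inducible TetOne vector or that vector with HA-tagged PAGE4, and had been selected with puromycin. Vector and PAGE4 cells of both lines all received doxycycline, and each was given PBS or H2O2, labelled as 200 mM, for 12 h before collection, which makes 8 conditions with 1 library each. That dose is far above those commonly used on cells, and its unit could not be checked from the counts. Each combination of line and construct is 1 selected culture, so nothing in the design separates the construct from other differences between 2 cultures. A p-value here measures the spread between the libraries of 1 experiment, and that spread is estimated in part over all genes. Where the H2O2 effect is compared between the constructs, it is estimated almost wholly over all genes. An effect of H2O2 in a line is repeated only over its vector and its PAGE4 culture.

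NRF2, encoded by NFE2L2, is held at a low level by KEAP1, which presents it to a ubiquitin ligase for degradation. Oxidants and electrophiles modify cysteines of KEAP1, NRF2 then accumulates, pairs with a small MAF protein such as MAFG or MAFF, and binds antioxidant response elements near its target genes. These targets make glutathione, reduce it and thioredoxin, supply NADPH, detoxify quinones and carbonyls, and export conjugates from the cell.

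The element has the core TGACNNNGC, in which N is any base, and a frequent form is TGACTCAGC, which also holds the AP-1 sequence TGACTCA. RefSeq windows on GRCh38.p14 that run from 250 bases before to 50 bases after a start were matched for 34 of the 42 genes. No window was at hand for HMOX1, SLC7A11, GSR, ABCC1, ABCC3, CBR3, TRIM16L and AKR1B10. The core was found on either strand in 16 of the 45 windows of these genes (35.6%), which belong to 15 genes (44.1% of those with a window), and in 13.3% of all 35116 windows of the same length. TGACTCAGC was found in 8.89% of the windows of these genes, which belong to 4 genes (11.8%), AIFM2, GSTP1, ME1 and PIR, and in 0.561% of all windows. TGACTCA was found in 11.1% of their windows, which belong to 5 genes (14.7%), and in 4.95% of all windows. A match describes the letters of a window only, and is not a measured binding site. The matches that lie before the start are shown for the genes with TGACTCAGC and for the genes among the 15 largest responses to H2O2. Of these 15, NQO1, SRXN1, OSGIN1, AKR1C2 and ABHD4 had a window without the core, and HMOX1, SLC7A11 and ABCC3 had no window. Capitals mark the 9 bases of the core or of its reverse complement, and each sequence is read 5′ to 3′ on the strand of its gene with 10 bases on each side.
ME1, chr6:83431170-83431198, minus strand: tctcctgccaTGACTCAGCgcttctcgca
GSTP1, chr11:67583736-67583764, plus strand: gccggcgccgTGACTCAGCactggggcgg
AIFM2, chr10:70132829-70132857, minus strand: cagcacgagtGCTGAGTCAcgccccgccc
GCLM, chr1:93909446-93909474, minus strand: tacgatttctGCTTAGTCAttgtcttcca
TXNRD1, chr12:104286920-104286948, plus strand: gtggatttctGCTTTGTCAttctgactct
TXNRD1, chr12:104215670-104215698, plus strand: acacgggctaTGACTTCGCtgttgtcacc
EPHX1, chr1:225825266-225825294, plus strand: tgagattggcTGACTTGGCaggactgtgc
GPX2, chr14:64942849-64942877, minus strand: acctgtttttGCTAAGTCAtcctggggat
MAFF, chr22:38201862-38201890, plus strand: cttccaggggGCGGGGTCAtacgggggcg
KEAP1, chr19:10502784-10502812, minus strand: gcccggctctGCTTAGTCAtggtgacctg
KEAP1, chr19:10502807-10502835, minus strand: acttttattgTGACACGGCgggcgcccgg

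The ME1 match lay 137 bases before the RefSeq start and outside the gene in the GENCODE annotation, and the GPX2 match lay 122 bases before the start and outside the gene. The printed stretches of GSTP1, AIFM2, GCLM, MAFF and KEAP1 and the first one of TXNRD1 overlapped an annotated exon of the same gene, in whole or in part. Those of GSTP1 and GCLM reached past the edge of the gene model, and for GCLM most of the 9 marked bases lay outside it. The EPHX1 match lay in an intron, and the other match of TXNRD1 outside the gene. GCLM and KEAP1 held the same 9 bases. GSTP1 and AIFM2, both with TGACTCAGC, were 2 of the 5 genes whose levels differed most between the lines, as described below. ME1 and PIR, also with TGACTCAGC, were not among these 5. AKR1B1 and NQO1 were among them and had a window without the core, and ABCC3 had no window. A link between the matches and the levels was not tested.

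Total counts per library ranged from 25482984 to 43310401. PAGE4 was at 0 to 0.0399 CPM in the 4 vector libraries and at 36.9 to 56.8 CPM in the 4 PAGE4 libraries, so the construct labels held. HOXB13, a prostate homeobox gene, was at 69.2 to 217 CPM in 22RV1 and at 0 to 0.146 CPM in DU145, and KLK3 was near 0 in DU145, while VIM was at 9.46 to 22.7 CPM in 22RV1 and 412 to 497 CPM in DU145. Of the DU145 markers, VIM, EGFR and S100A2 were lower in 22RV1 with PBS. CD44 and LGALS1 did not pass the test between the lines with PBS. Their log2 differences, 22RV1 minus DU145, were 0.19 and 0.45, on the side opposite to that of a DU145 marker. Mitochondrial genes took 10.2% to 16.5% of the counts of the PBS libraries and 8.97% to 11.2% of the H2O2 libraries, and their part in the results below was not tested.

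**Figure D1:**
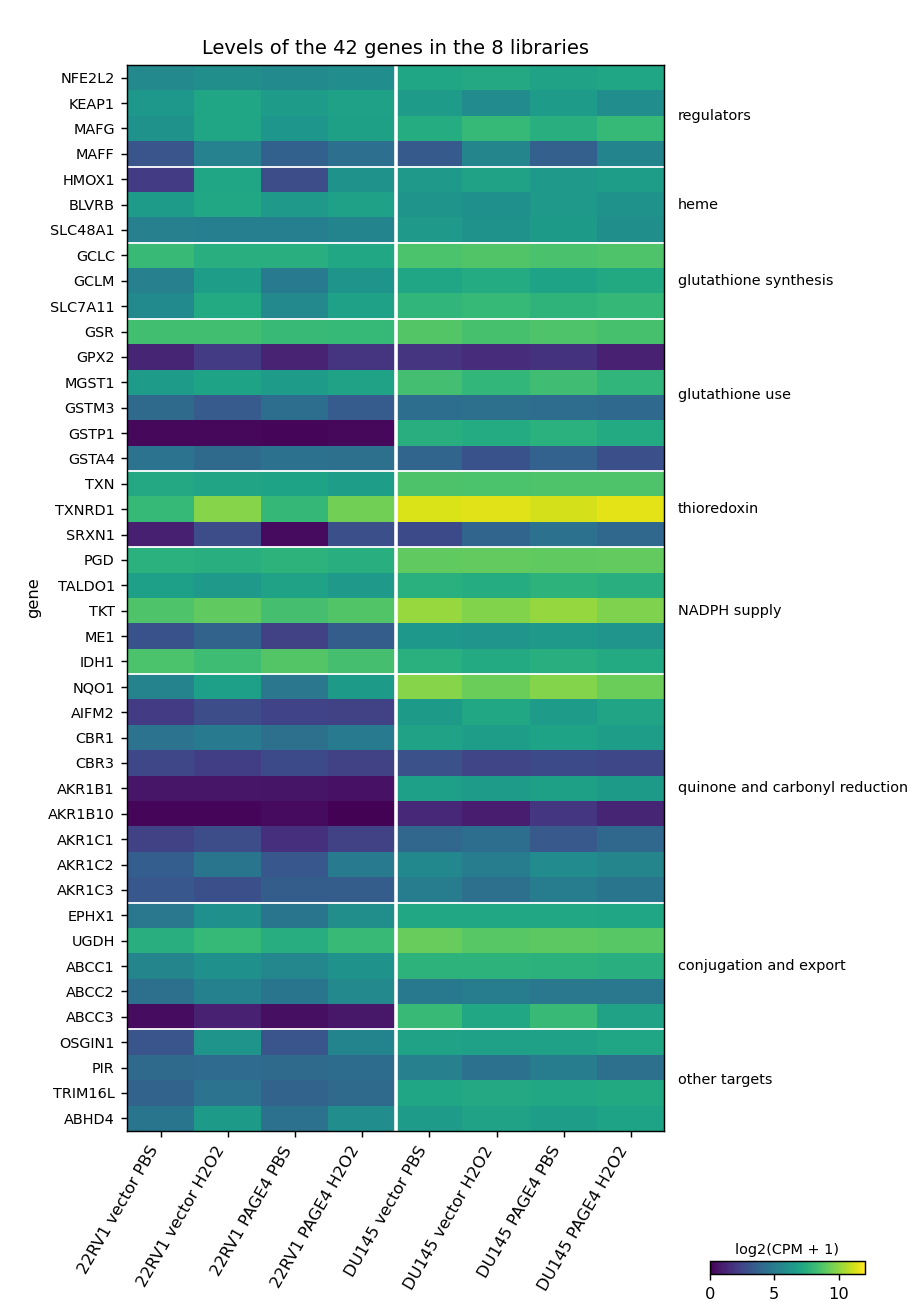
Level of the 42 genes (rows, grouped by role) in the 8 libraries (columns), as colour on the scale log2(CPM + 1). The rows of GSTP1, AKR1B1 and ABCC3 are dark in all 4 22RV1 libraries and bright in all 4 DU145 libraries, and HMOX1 and OSGIN1 are darker in the PBS libraries of 22RV1 than in the other 6 libraries.

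Levels are given as CPM, counts relative to the TMM-scaled library total, and for a comparison between genes as the same value per kilobase of annotated exon (RPKM). That length takes all annotated exons of a gene together, which can exceed the length of the transcripts present, and the ranks depend on it. TXN, the redox protein thioredoxin, was the most abundant of the 42 per length in both lines with PBS, at a mean of 136 RPKM in 22RV1 and 402 RPKM in DU145. It was followed in 22RV1 by IDH1 (88.5 RPKM) and GSR (83.4 RPKM), and in DU145 by TXNRD1 (369.6 RPKM) and NQO1 (299.9 RPKM). NQO1 ranked 14 and TXNRD1 ranked 9 of 42 in 22RV1. GSTP1 ranked 8 in DU145 and 41 in 22RV1. HMOX1, the gene with the largest response to H2O2 below, ranked 30 in 22RV1 and 16 in DU145 with PBS. By mean CPM with PBS, TXN (137 in 22RV1 and 406 in DU145) was under IDH1 in 22RV1 (416) and under TXNRD1 in DU145 (2480).

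H2O2 raised most of these genes in 22RV1 and lowered more of them than it raised in DU145. In 22RV1, 25 of the 42 rose, 5 fell and 12 did not pass the test, with a median log2 fold change of 0.48, against a median of 0.00 over the 24637 genes tested. The test is edgeR's quasi-likelihood test with an adjusted p limit of 0.05, and over all genes tested it called 11.6% higher and 13.9% lower. In DU145, 7 rose, 15 fell and 20 did not pass, with a median of -0.19 against -0.02 over all genes, of which 15.3% were called higher and 18.3% lower. The fitted changes ranged from -0.84 to 4.40 in 22RV1 and from -1.10 to 2.00 in DU145. In bulk RNA a change in all cells and a change in a share of the cells cannot be told apart. A change of over 2-fold was reached by 14 of the 25 genes that rose in 22RV1, and by 2 of the 22 that changed in DU145, MAFF and ABCC3. Neither changes of this size nor the joint directions that follow were counted over all genes, so these counts describe the 42 only. By direction, 8 genes rose in 22RV1 and fell in DU145 (NQO1, TKT, ABCC3, UGDH, MGST1, KEAP1, BLVRB and AKR1C2), 6 rose in both (GCLM, TXNRD1, MAFG, MAFF, ABHD4 and AKR1C1), 2 fell in both (TALDO1 and IDH1), 11 rose in 22RV1 and did not pass in DU145, 5 fell in DU145 and did not pass in 22RV1, and 6 passed in neither.

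The difference between the lines was tested in the same fit. The response to H2O2 was higher in 22RV1 than in DU145 for 25 of the 42 genes and lower for 2, GCLC and GSTM3, with a median difference of 0.68 on the log2 scale against 0.04 over all genes, of which 8.22% were called higher and 7.04% lower. Both H2O2 libraries lay above both PBS libraries for 26 genes in 22RV1 and for 12 in DU145, and both lay below for 6 genes in 22RV1 and for 22 in DU145. The share of all genes separated in this way was not computed, so these counts describe the 42 only. Scaling by total counts moved the median of all genes in 22RV1 by 0.12, and gave 27 genes higher and 3 lower there and 9 higher and 10 lower in DU145. Without the DU145 vector pair 3 genes were higher and 8 lower in DU145, without the DU145 PAGE4 pair 4 and 8, and with either 22RV1 pair left out 11 were higher.

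**Figure D2:**
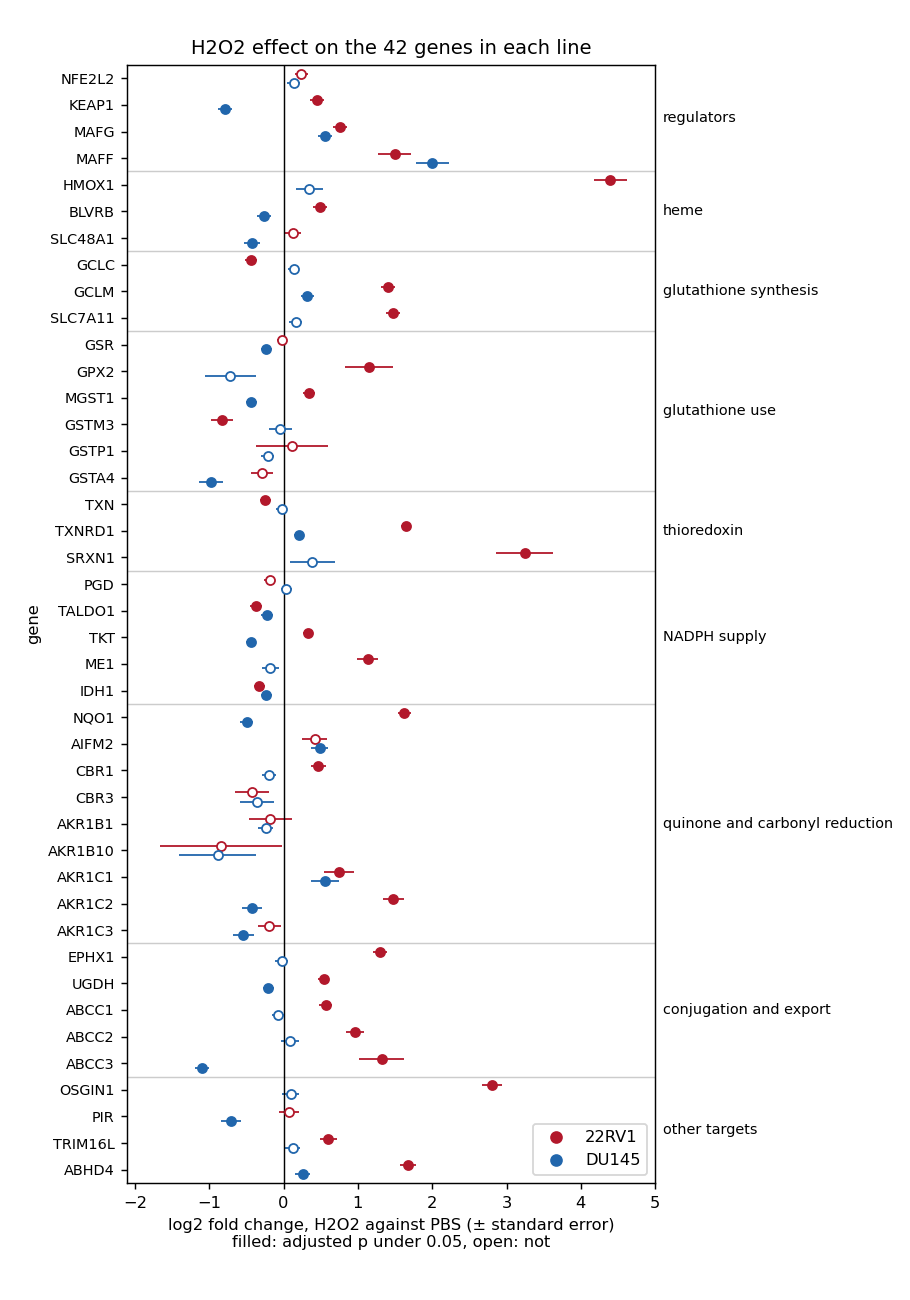
Log2 fold change of H2O2 against PBS for the 42 genes (rows, grouped by role) in 22RV1 (red) and DU145 (blue), with bars of 1 standard error, filled where the adjusted p was under 0.05. The 22RV1 points reach 4.40 for HMOX1, while those of DU145 lie between -1.10 and 2.00.

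Of the regulators, MAFF and MAFG rose in both lines, KEAP1 moved in opposite directions, and NFE2L2 passed the test in neither. NFE2L2 was at 49.9 CPM in 22RV1 vector cells with PBS, 60.7 with H2O2, 50.9 in 22RV1 PAGE4 cells with PBS and 58.1 with H2O2, and at 138, 149, 121 and 136 CPM in the DU145 libraries in the same order. The H2O2 values were above the PBS values in 22RV1 and overlapped them in DU145. Its log2 fold change was 0.24 ± 0.09 in 22RV1 (standard error of the fit, adjusted p = 0.0523) and 0.14 ± 0.09 in DU145 (adjusted p = 0.250). Its exons share 13.6% of their bases with other genes on the same strand and 24.8% with genes on the other strand, and the strand setting of the counting is not given in the sources used here.

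KEAP1, the inhibitor of NRF2, was at 84.7 CPM in 22RV1 vector cells with PBS, 130.2 with H2O2, 97.1 in 22RV1 PAGE4 cells with PBS and 117 with H2O2, and at 96.6, 54.1, 97.1 and 58.4 CPM in the DU145 libraries in the same order. All 4 H2O2 libraries lay outside the range of the PBS libraries of their line, above it in 22RV1 and below it in DU145. It rose by 0.45 ± 0.09 on the log2 scale in 22RV1 (adjusted p = 0.000921) and fell in DU145 (-0.79 ± 0.10, adjusted p = 7.08e-07), and the difference between the lines was 1.23 ± 0.14 (adjusted p = 6.03e-07). With the 22RV1 vector pair left out, the change in 22RV1 was 0.26 and did not pass (adjusted p = 0.126).

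MAFF, a small MAF protein that serves as a partner of NRF2, was at 7.92 CPM in 22RV1 vector cells with PBS, 39.1 with H2O2, 12.4 in 22RV1 PAGE4 cells with PBS and 19.6 with H2O2, and at 9.44, 42.5, 11.7 and 41.96 CPM in the DU145 libraries in the same order. The H2O2 values lay above all PBS values of the same line, and the 22RV1 PAGE4 library was the lowest of the 4. MAFF rose by 1.49 ± 0.22 in 22RV1 (adjusted p = 1.67e-05), which was 2.29 without the PAGE4 pair and 0.66 without the vector pair, and by 2.00 ± 0.22 in DU145 (adjusted p = 1.47e-07), where it had the largest fold change of the 42. The lines did not differ by the test (difference -0.51 ± 0.31, adjusted p = 0.326).

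MAFG, another small MAF partner, was at 68.0 CPM in 22RV1 vector cells with PBS, 135 with H2O2, 78.9 in 22RV1 PAGE4 cells with PBS and 113 with H2O2, and at 172, 258, 183 and 263 CPM in the DU145 libraries in the same order. In both lines the H2O2 libraries were clear of the PBS libraries. MAFG rose by 0.75 ± 0.09 in 22RV1 (adjusted p = 1.35e-06) and by 0.56 ± 0.09 in DU145 (adjusted p = 3.67e-05), with a difference of 0.20 ± 0.13 that did not pass (adjusted p = 0.371).

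**Figure D3:**
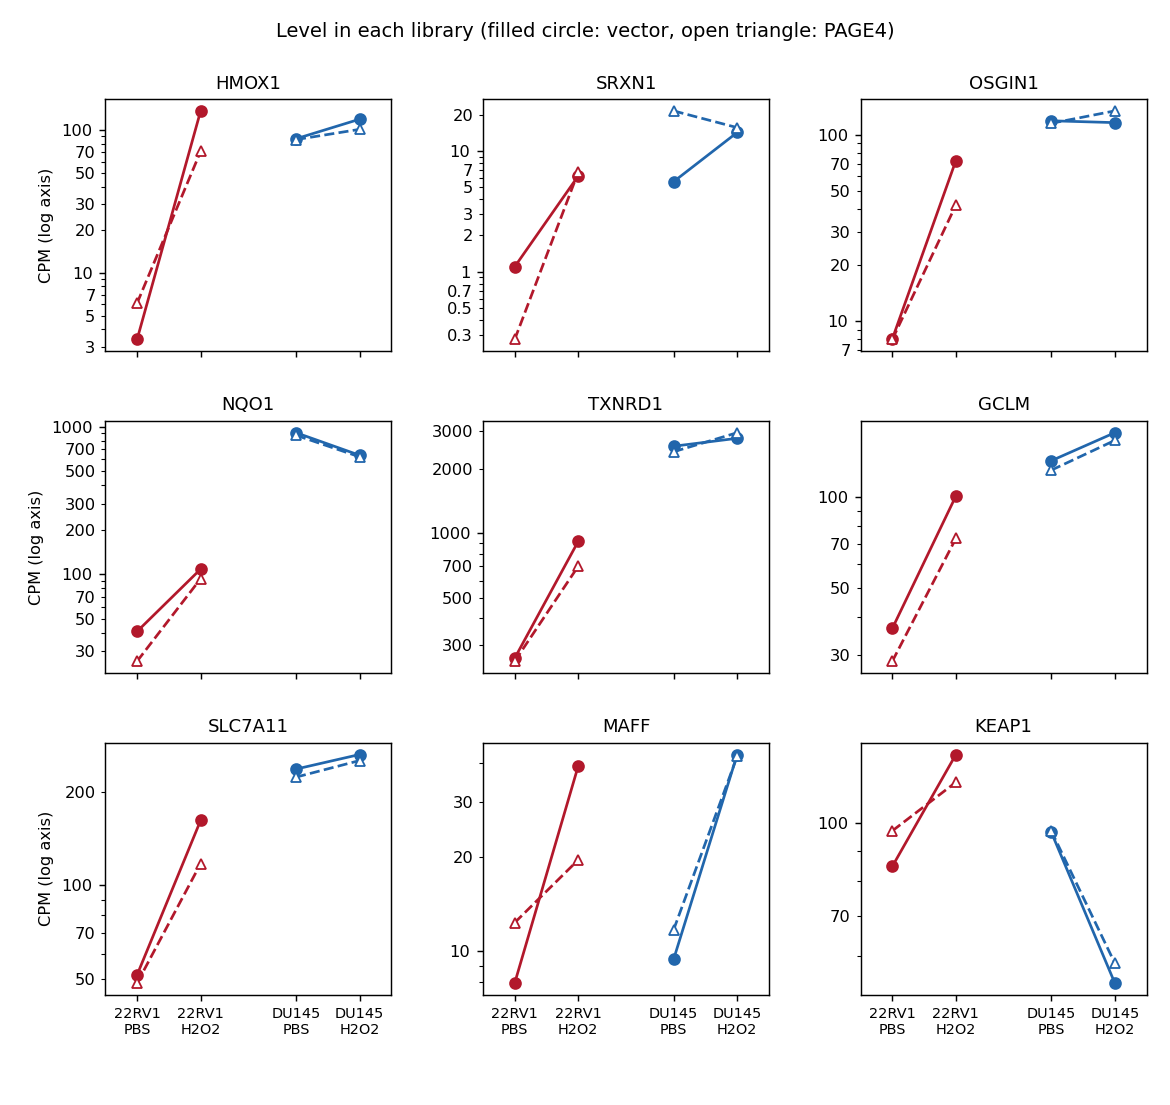
Level in CPM (log axis) of 9 genes in each of the 8 libraries, with lines joining PBS to H2O2 in the same culture, vector as filled circles and PAGE4 as open triangles. The 22RV1 lines (red) rise for all 9 genes, those of HMOX1 from 3.40 to 136 and from 6.10 to 70.8 CPM, while the DU145 lines (blue) of NQO1 and KEAP1 go down.

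The heme genes all had a higher response in 22RV1 than in DU145. HMOX1, which encodes heme oxygenase and lies at chr22:35380361-35394214, plus strand, was at 3.40 CPM in 22RV1 vector cells with PBS, 136 with H2O2, 6.10 in 22RV1 PAGE4 cells with PBS and 70.8 with H2O2, and at 86.7, 119, 85.5 and 101 CPM in the DU145 libraries in the same order. The PBS level in 22RV1 was far under that of DU145, and the H2O2 libraries of the lines overlapped. HMOX1 rose 21.1-fold in 22RV1 (log2 fold change 4.40 ± 0.22, adjusted p = 4.82e-13), the largest change of the 42, while the DU145 value was 0.35 ± 0.18 and did not pass (adjusted p = 0.151). The log2 fold change in 22RV1 was 5.31 without the PAGE4 pair and 3.53 without the vector pair. The difference between the lines was 4.05 ± 0.28 (adjusted p = 3.12e-10), and 4.92 and 3.14 without the same pairs.

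BLVRB, a biliverdin reductase that acts on the product of heme oxygenase, was at 94.6, 139, 87.1 and 117 CPM in the 22RV1 libraries and 72.4, 63.2, 86.4 and 69.0 CPM in the DU145 libraries. It rose in 22RV1 (0.49 ± 0.09, adjusted p = 0.000172) and fell in DU145 (-0.26 ± 0.09, adjusted p = 0.0298), although the DU145 call was lost with either DU145 pair left out (adjusted p = 0.418 without the PAGE4 pair and 0.114 without the vector pair). SLC48A1, a heme transporter, did not pass in 22RV1 (0.12 ± 0.11) and fell in DU145 (-0.43 ± 0.11, adjusted p = 0.00255). That fall was -0.29 without the DU145 PAGE4 pair (adjusted p = 0.246). The difference between the lines was 0.75 ± 0.13 for BLVRB and 0.55 ± 0.15 for SLC48A1. For SLC48A1 this was lost without the DU145 PAGE4 pair (0.41, adjusted p = 0.252) and without the 22RV1 PAGE4 pair (0.34, adjusted p = 0.153).

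In glutathione synthesis, the partner subunit and the cystine importer rose in 22RV1 while the catalytic subunit fell. GCLM, the modifier subunit of glutamate-cysteine ligase, was at 36.6 CPM in 22RV1 vector cells with PBS, 101 with H2O2, 28.5 in 22RV1 PAGE4 cells with PBS and 72.8 with H2O2, and at 132, 163, 123 and 154 CPM in the DU145 libraries in the same order. SLC7A11, which brings cystine into the cell, was at 51.4 CPM in 22RV1 vector cells with PBS, 162 with H2O2, 48.4 in 22RV1 PAGE4 cells with PBS and 118 with H2O2, and at 237, 264, 223 and 253 CPM in the DU145 libraries in the same order. In 22RV1 both H2O2 libraries were above both PBS libraries for each gene, and all 22RV1 values were under all DU145 values. GCLM rose 2.65-fold in 22RV1 (1.41 ± 0.09, adjusted p = 2.38e-11) and by 0.32 ± 0.09 in DU145 (adjusted p = 0.00525). The DU145 call was lost without the DU145 PAGE4 pair (adjusted p = 0.122) and without the DU145 vector pair (adjusted p = 0.0980). SLC7A11 rose 2.77-fold in 22RV1 (1.47 ± 0.09, adjusted p = 1.24e-11) and was at 0.17 ± 0.09 in DU145 without passing (adjusted p = 0.155). Both responses differed between the lines, by 1.09 ± 0.12 for GCLM (adjusted p = 9.26e-07) and by 1.30 ± 0.12 for SLC7A11 (adjusted p = 6.07e-08).

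GCLC, the catalytic subunit of the same ligase, was at 276 CPM in 22RV1 vector cells with PBS, 189 with H2O2, 180.4 in 22RV1 PAGE4 cells with PBS and 144 with H2O2, and at 389.5, 422, 376 and 419 CPM in the DU145 libraries in the same order. The 22RV1 PBS and H2O2 values overlapped across the constructs, with the H2O2 value the lower one in each culture. GCLC fell in 22RV1 (-0.44 ± 0.08, adjusted p = 0.000117, and 0.104 with the cell line alone as the block) and was at 0.14 ± 0.08 in DU145 (adjusted p = 0.186). It was thus 1 of the 2 genes with a lower response in 22RV1 than in DU145 (difference -0.57 ± 0.11, adjusted p = 0.000531, and 0.192 with the cell line alone as the block).

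The genes of glutathione use moved in both directions. Of the 6, 2 rose and 1 fell in 22RV1, and 3 fell and none rose in DU145. GPX2, a glutathione peroxidase, was at 1.37, 3.28, 1.23 and 2.52 CPM in the 22RV1 libraries and 2.44, 1.83, 2.40 and 1.15 CPM in the DU145 libraries. These are low levels, with the H2O2 libraries of 22RV1 above its PBS libraries. GPX2 rose by 1.15 ± 0.32 in 22RV1 (adjusted p = 0.0101). That call was lost without the 22RV1 vector pair (1.02, adjusted p = 0.153) and with DESeq2's Wald test (adjusted p = 0.106). In DU145, GPX2 was at -0.72 ± 0.34 (adjusted p = 0.117), and the difference between the lines was 1.86 ± 0.47 (adjusted p = 0.00753). The difference did not pass without the DU145 PAGE4 pair (adjusted p = 0.101) or with DESeq2's Wald test (adjusted p = 0.0790).

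MGST1, a membrane-bound glutathione transferase, rose in 22RV1 (0.34 ± 0.08, adjusted p = 0.00179) and fell in DU145 (-0.43 ± 0.08, adjusted p = 7.76e-05). GSTM3, a glutathione transferase of the mu class, fell in 22RV1 (-0.83 ± 0.15, adjusted p = 0.000168) from 16.6 and 19.4 CPM to 9.79 and 10.4 CPM and was at -0.04 ± 0.15 in DU145, a difference of -0.79 ± 0.21 (adjusted p = 0.0120) that was lost without the DU145 vector pair (-0.64, adjusted p = 0.187). GSTA4, which conjugates the lipid peroxidation product hydroxynonenal, fell in DU145 (-0.97 ± 0.16, adjusted p = 4.11e-05) and did not pass in 22RV1 (-0.29 ± 0.15). GSR, which reduces oxidized glutathione, was close to level in 22RV1 (-0.02 ± 0.07, adjusted p = 0.898) and fell in DU145 (-0.23 ± 0.07, adjusted p = 0.0145), a call lost with either DU145 pair left out (adjusted p = 0.108 and 0.258). GSTP1, the pi class transferase, held 6 to 9 counts in each 22RV1 library, too few to show a change, and did not pass in DU145 (-0.21 ± 0.09).

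In the thioredoxin group TXNRD1 and SRXN1 rose in 22RV1 and thioredoxin itself fell slightly. TXNRD1, the selenoprotein that reduces thioredoxin, was at 260.1 CPM in 22RV1 vector cells with PBS, 917 with H2O2, 252 in 22RV1 PAGE4 cells with PBS and 701 with H2O2, and at 2554, 2782, 2406 and 2955 CPM in the DU145 libraries in the same order. In both lines the H2O2 values lay above the PBS values, with a wide gap in 22RV1 and a narrow one in DU145. TXNRD1 rose 3.14-fold in 22RV1 (1.65 ± 0.07, adjusted p = 4.11e-14) and by 0.21 ± 0.07 in DU145 (adjusted p = 0.0220), a difference of 1.44 ± 0.10 (adjusted p = 2.73e-10). Without the DU145 PAGE4 pair the DU145 change was 0.13 (adjusted p = 0.429).

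SRXN1, which restores overoxidized peroxiredoxins, was at 1.10 CPM in 22RV1 vector cells with PBS, 6.22 with H2O2, 0.276 in 22RV1 PAGE4 cells with PBS and 6.70 with H2O2, and at 5.58, 14.2, 21.5 and 15.6 CPM in the DU145 libraries in the same order. It went up with H2O2 in both 22RV1 cultures and in DU145 vector cells, and down in DU145 PAGE4 cells, whose PBS library held the highest value of the 8. SRXN1 rose 9.46-fold in 22RV1 (3.24 ± 0.39, adjusted p = 7.35e-07) and did not pass in DU145 (0.39 ± 0.30, adjusted p = 0.376). The size in 22RV1 rests on few counts, 11 in the PAGE4 library with PBS, and on the log2 scale it was 2.48 without the PAGE4 pair and 4.57 without the vector pair. The difference was 2.86 ± 0.50 (adjusted p = 0.000243, and 0.0670 with DESeq2's Wald test), and it ranged from 1.93 to 4.17 with 1 pair left out, the lowest without the DU145 PAGE4 pair and the highest without the 22RV1 vector pair. Since 90.7% of its exon bases are shared on the same strand with another gene model, ENSG00000270299, its counts are uncertain. TXN fell in 22RV1 (-0.24 ± 0.07, adjusted p = 0.0169) and was at -0.03 ± 0.07 in DU145. The fall did not pass with the 22RV1 PAGE4 pair left out (adjusted p = 0.0507), with the 22RV1 vector pair left out (adjusted p = 0.0577) or under total count scaling (-0.11, adjusted p = 0.313).

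Among the genes that supply NADPH, ME1 and TKT rose in 22RV1 and the others did not. ME1, the cytosolic malic enzyme, was at 7.07 CPM in 22RV1 vector cells with PBS, 13.3 with H2O2, 3.94 in 22RV1 PAGE4 cells with PBS and 10.5 with H2O2, and at 82.6, 75.4, 88.2 and 75.5 CPM in the DU145 libraries in the same order. The 22RV1 values with H2O2 were above those with PBS, and all 4 were far under the DU145 values. ME1 rose 2.19-fold in 22RV1 (1.13 ± 0.14, adjusted p = 7.47e-07) and was at -0.18 ± 0.11 in DU145 without passing (adjusted p = 0.247), a difference of 1.31 ± 0.18 (adjusted p = 8.91e-06).

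TKT, the transketolase of the pentose phosphate pathway, was at 409 CPM in 22RV1 vector cells with PBS, 536 with H2O2, 356 in 22RV1 PAGE4 cells with PBS and 430.4 with H2O2, and at 1146, 838, 1112 and 823 CPM in the DU145 libraries in the same order. It rose by 0.33 ± 0.07 in 22RV1 (adjusted p = 0.000499, and 0.0667 with the cell line alone as the block) and fell in DU145 (-0.44 ± 0.07, adjusted p = 8.46e-06), a difference of 0.77 ± 0.09 (adjusted p = 2.03e-06). TALDO1, the transaldolase of that pathway, and IDH1, the cytosolic NADP-dependent isocitrate dehydrogenase, fell in both lines. Their log2 fold changes were -0.37 and -0.33 in 22RV1 and -0.22 and -0.23 in DU145. Both DU145 calls were lost with either DU145 pair left out (adjusted p = 0.224 to 0.367 for TALDO1 and 0.102 to 0.299 for IDH1), and the IDH1 call in 22RV1 was lost under total count scaling (adjusted p = 0.0534). PGD, the 6-phosphogluconate dehydrogenase, passed in neither line (-0.19 ± 0.07 in 22RV1, adjusted p = 0.0534, and 0.04 ± 0.07 in DU145).

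Quinone and carbonyl reduction held 2 of the 8 genes with opposite calls in the lines, NQO1 and AKR1C2. NQO1, the NAD(P)H quinone reductase at chr16:69706996-69726668, minus strand, was at 40.9 CPM in 22RV1 vector cells with PBS, 108 with H2O2, 25.7 in 22RV1 PAGE4 cells with PBS and 93.3 with H2O2, and at 909, 639, 873 and 623 CPM in the DU145 libraries in the same order. H2O2 took both 22RV1 cultures up and both DU145 cultures down, with no overlap in either line, and every DU145 value stayed above every 22RV1 value. NQO1 rose 3.08-fold in 22RV1 (1.62 ± 0.09, adjusted p = 1.57e-12) and fell in DU145 (-0.50 ± 0.08, adjusted p = 3.47e-05), a difference of 2.12 ± 0.12 (adjusted p = 7.40e-12). Of its exon bases, 19.4% overlap genes on the other strand.

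AKR1C2, an aldo-keto reductase that inactivates dihydrotestosterone, was at 10.9 CPM in 22RV1 vector cells with PBS, 24.3 with H2O2, 8.44 in 22RV1 PAGE4 cells with PBS and 29.7 with H2O2, and at 47.3, 32.9, 54.3 and 43.2 CPM in the DU145 libraries in the same order. Its H2O2 values were above the PBS values in 22RV1 and under them in DU145. AKR1C2 rose 2.78-fold in 22RV1 (1.47 ± 0.14, adjusted p = 2.73e-08) and fell in DU145 (-0.43 ± 0.13, adjusted p = 0.0150), a difference of 1.90 ± 0.20 (adjusted p = 2.00e-07). The DU145 call was lost with either DU145 pair left out (adjusted p = 0.0696 and 0.289) and with DESeq2's Wald test (adjusted p = 0.0695). AKR1C1, its near copy, rose in 22RV1 (0.75 ± 0.21, adjusted p = 0.00807) and in DU145 (0.56 ± 0.18, adjusted p = 0.0198). The 22RV1 call was lost without the 22RV1 PAGE4 pair (adjusted p = 0.0813), and the DU145 call with either DU145 pair left out (adjusted p = 0.420 and 0.0728). Of the 50-base stretches in their transcripts, 36.0% for AKR1C2 and 24.9% for AKR1C1 also occur in other genes, mostly in each other, so the split of reads between them is uncertain.

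AKR1C3, which makes testosterone from androstenedione, fell in DU145 (-0.54 ± 0.14, adjusted p = 0.00416, and 0.202 without the DU145 vector pair) and did not pass in 22RV1 (-0.19 ± 0.15). AIFM2, a reductase of coenzyme Q that protects from ferroptosis, rose in DU145 (0.49 ± 0.12, adjusted p = 0.00211, and 0.132 without the DU145 vector pair). In 22RV1 its value of 0.42 ± 0.17 did not pass (adjusted p = 0.0718). CBR1, a carbonyl reductase, rose in 22RV1 (0.47 ± 0.10, adjusted p = 0.000786), and its DU145 value of -0.19 ± 0.09 did not pass. CBR3 and AKR1B1 passed in neither line, AKR1B10 did not pass in DU145 and held only 1 to 11 counts in each 22RV1 library, and 71.1% of the exon bases of CBR3 overlap the antisense gene CBR3-AS1.

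All 5 genes of conjugation and export rose in 22RV1, none rose in DU145, and all 5 responses differed between the lines. EPHX1, the microsomal epoxide hydrolase, was at 26.9 CPM in 22RV1 vector cells with PBS, 64.7 with H2O2, 24.0 in 22RV1 PAGE4 cells with PBS and 60.5 with H2O2, and at 140.0, 145, 143 and 134 CPM in the DU145 libraries in the same order. Its 22RV1 values with H2O2 were all above those with PBS, while the DU145 values overlapped. EPHX1 rose 2.46-fold in 22RV1 (1.30 ± 0.09, adjusted p = 1.87e-10) and was at -0.02 ± 0.09 in DU145 (adjusted p = 0.896), a difference of 1.32 ± 0.13 (adjusted p = 7.22e-08).

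ABCC3, an exporter of organic anions and glucuronides, was at 0.338 CPM in 22RV1 vector cells with PBS, 1.16 with H2O2, 0.427 in 22RV1 PAGE4 cells with PBS and 0.709 with H2O2, and at 282, 143, 279 and 119.8 CPM in the DU145 libraries in the same order. The 22RV1 level was low, at 15 to 45 counts per library, and the DU145 level went down in both cultures. ABCC3 rose by 1.32 ± 0.30 in 22RV1 (adjusted p = 0.00166), where the call was lost without the 22RV1 vector pair (0.72, adjusted p = 0.358), and fell 2.14-fold in DU145 (-1.10 ± 0.10, adjusted p = 2.94e-09). The difference was 2.42 ± 0.31 (adjusted p = 5.54e-06), and 1.77 without the 22RV1 vector pair. ABCC2, an exporter of conjugates, rose 1.94-fold in 22RV1 (0.96 ± 0.12, adjusted p = 1.36e-06) and ABCC1, an exporter of glutathione conjugates, rose 1.48-fold (0.57 ± 0.09, adjusted p = 2.01e-05), with DU145 values of 0.08 ± 0.12 and -0.07 ± 0.08 that did not pass. UGDH, which makes UDP-glucuronic acid, rose in 22RV1 (0.54 ± 0.07, adjusted p = 5.45e-06) and fell in DU145 (-0.20 ± 0.07, adjusted p = 0.0359). The fall of UGDH was lost with either DU145 pair left out (adjusted p = 0.0555 and 0.630).

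Of the other targets, OSGIN1 and ABHD4 had large responses in 22RV1. OSGIN1, a growth inhibitor induced by oxidative stress, was at 8.04 CPM in 22RV1 vector cells with PBS, 72.8 with H2O2, 7.98 in 22RV1 PAGE4 cells with PBS and 41.99 with H2O2, and at 119, 116, 115 and 134 CPM in the DU145 libraries in the same order. The 22RV1 cultures started from like values and reached different ones, and the DU145 values overlapped between treatments. OSGIN1 rose 6.97-fold in 22RV1 (2.80 ± 0.14, adjusted p = 2.78e-13) and was at 0.09 ± 0.12 in DU145 (adjusted p = 0.606), a difference of 2.71 ± 0.18 (adjusted p = 1.19e-10).

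ABHD4, a lipid hydrolase, was at 24.5 CPM in 22RV1 vector cells with PBS, 91.2 with H2O2, 21.6 in 22RV1 PAGE4 cells with PBS and 58.5 with H2O2, and at 96.9, 120.4, 106 and 123 CPM in the DU145 libraries in the same order. The H2O2 values lay above the PBS values in both lines, with the wider gap in 22RV1. It rose 3.19-fold in 22RV1 (1.67 ± 0.11, adjusted p = 2.37e-11) and by 0.26 ± 0.10 in DU145 (adjusted p = 0.0490). The DU145 call was lost with either DU145 pair left out (adjusted p = 0.157 and 0.386) and with DESeq2's Wald test (adjusted p = 0.0596). TRIM16L rose in 22RV1 (0.60 ± 0.11, adjusted p = 0.000218, and 0.0747 without the 22RV1 vector pair). Of its 50-base stretches, 42.7% also occur in other genes, mostly TRIM16, and its counts are uncertain. PIR, the nuclear protein pirin, fell in DU145 (-0.70 ± 0.13, adjusted p = 0.000143) and was level in 22RV1 (0.07 ± 0.13, adjusted p = 0.754).

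The lines differed in these genes before any H2O2 was given. With PBS, 34 of the 42 were lower in 22RV1 than in DU145, 2 were higher and 6 did not pass the test, against 27.8% lower and 30.7% higher among the 23404 genes tested in the 4 PBS libraries. The median difference of the 42, 22RV1 minus DU145, was -1.77 on the log2 scale, against 0.08 over all genes (0.24 under total count scaling). Both 22RV1 libraries lay below both DU145 libraries for 35 genes, GSTP1 and AKR1B10 included. The share of all genes separated between the lines in this way was not computed. All 3 genes of glutathione synthesis, all 3 of the thioredoxin group, 8 of the 9 of quinone and carbonyl reduction and all 4 other targets were lower in 22RV1. IDH1 and GSTA4 were the 2 higher ones, and ABCC2, CBR3, GSTM3, KEAP1, MAFF and BLVRB did not pass. GSTP1 and AKR1B10, counted among the 34, held 5 to 11 counts in the 22RV1 libraries with PBS. Both entered the fit only through DU145, the line where they are high, so their calls are no test of the difference. AKR1B10 is also counted among the 8 of quinone and carbonyl reduction. The 2 libraries per line differ in construct.

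GSTP1 was at 0.203 CPM in 22RV1 vector cells with PBS, 0.181 with H2O2, 0.151 in 22RV1 PAGE4 cells with PBS and 0.213 with H2O2, and at 183, 168, 199 and 161 CPM in the DU145 libraries in the same order. With PBS it had 9 and 6 counts in the 22RV1 libraries and 5012 and 5389 in the DU145 libraries. Its 22RV1 mean was under 10 normalized counts and the gene entered the fit through DU145, so no test of this difference is given. AKR1B1, the aldose reductase, was at 0.675 CPM in 22RV1 vector cells with PBS, 0.646 with H2O2, 0.628 in 22RV1 PAGE4 cells with PBS and 0.496 with H2O2, and at 109.7, 96.8, 114 and 92.3 CPM in the DU145 libraries in the same order. Its difference with PBS was -7.42 ± 0.15 (adjusted p = 7.23e-10). For ABCC3 the difference was -9.52 ± 0.16 (adjusted p = 5.83e-10), with a 22RV1 mean at 0.136% of that of DU145. With H2O2 the difference was -7.36 for AKR1B1, and GSTP1 had 7 and 6 counts in 22RV1 and 4213 and 4053 in DU145.

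AIFM2 was at 3.33 CPM in 22RV1 vector cells with PBS, 6.04 with H2O2, 4.39 in 22RV1 PAGE4 cells with PBS and 4.15 with H2O2, and at 93.4, 140.0, 98.7 and 129 CPM in the DU145 libraries in the same order. All 22RV1 values lay far under all DU145 values, and the difference with PBS was -4.65 ± 0.16 (adjusted p = 9.37e-09). NQO1 differed by -4.75 ± 0.20 (adjusted p = 4.71e-08), HMOX1 by -4.19 ± 0.23 (adjusted p = 2.22e-07) and NFE2L2 by -1.37 ± 0.11 (adjusted p = 2.84e-06). On the other side, IDH1 was at 389.9, 311, 441 and 352 CPM in the 22RV1 libraries and 192, 159.6, 182 and 159.8 CPM in the DU145 libraries in the order vector PBS, vector H2O2, PAGE4 PBS, PAGE4 H2O2, and differed with PBS by 1.14 ± 0.10 (adjusted p = 8.66e-06).

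Most of these genes stayed lower in 22RV1 with H2O2. In the 4 H2O2 libraries, a comparison added after the values were seen, 32 of the 42 were lower in 22RV1 and 5 were higher, against 27.2% lower and 29.5% higher of all genes tested, and the median difference was -1.07. Of the 34 genes lower with PBS, 31 were lower with H2O2 too, and HMOX1, PIR and GPX2 did not pass. GSTP1 and AKR1B10, which entered through DU145 only, are included in the 32, the 34 and the 31. The PBS call of GPX2 (-0.90 ± 0.33, adjusted p = 0.0404) was the 1 of 36 that was lost under alternatives, with an adjusted p of up to 0.119. The mean HMOX1 level of 22RV1 was 5.52% of that of DU145 with PBS and 94.1% with H2O2. For NQO1 these values were 3.74% and 16.0%, for TXNRD1 10.3% and 28.2%, and for SLC7A11 21.7% and 54.1%. The line comparisons share their libraries with the H2O2 comparisons, so the 2 sets of values are not independent.

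**Figure D4:**
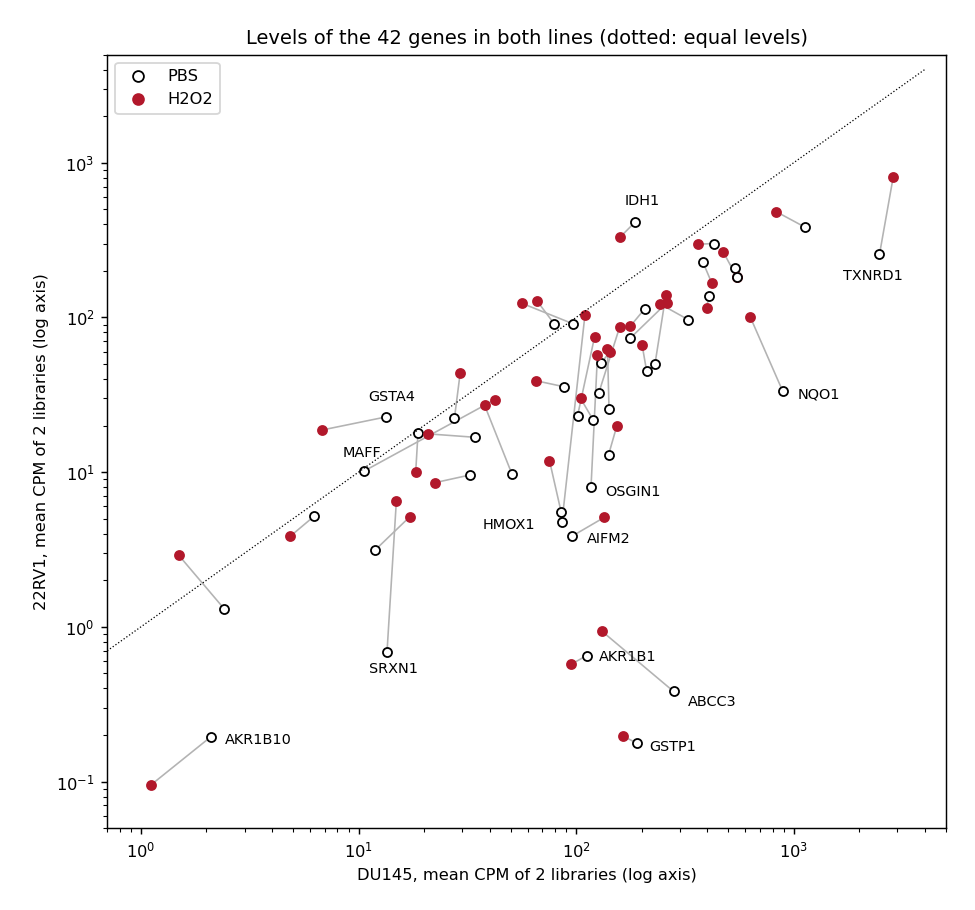
Mean CPM of the 2 libraries of each line (DU145 on the x axis, 22RV1 on the y axis, both log axes) for the 42 genes, with PBS (open) joined to H2O2 (red) and a dotted line of equal levels. Most genes lie under the dotted line, GSTP1, ABCC3 and AKR1B1 farthest, and HMOX1 moves up to it with H2O2, from 5.52% to 94.1% of the DU145 level.

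The construct comparison asked whether PAGE4 cells differed from vector cells. Over both lines no member passed the test by edgeR, against 0.126% of all genes called higher and 0.0934% lower. An unadjusted p under 0.05 by edgeR was found for 8 of the 42 and for 1835 of the 24637 genes tested. DESeq2's Wald test called 1 member lower, against 27 lower and 61 higher of all genes tested. In DU145 none passed by edgeR or by DESeq2's Wald test, against 0.211% of all genes called higher and 0.13% lower by edgeR. There 4 of the 42 had an unadjusted p under 0.05 by edgeR, against 1770 of the 24637 genes tested. In 22RV1, 10 of the 42 were lower in PAGE4 cells and none was higher, against 2.18% lower and 2.15% higher of all genes, with a median log2 fold change of -0.13 against -0.01. DESeq2's Wald test called 7 of them lower and none higher, against 267 lower and 382 higher of the 24637 genes tested. Of the 42, 16 had an unadjusted p under 0.05 by edgeR, against 3656 of the 24637. EGFR, one of the DU145 markers checked, was at 201 and 124 CPM in the vector and 45.9 and 41.2 CPM in the PAGE4 culture of 22RV1, and the part of such other differences between the cultures was not tested. The 10 were NQO1, GCLC, GCLM, TKT, ME1, GSR, OSGIN1, TXN, ABHD4 and AKR1C1.

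The changes were small, between -0.82 for AKR1C1 (adjusted p = 0.0192) and -0.26 for TKT (adjusted p = 0.0224). GCLC had the smallest p. It went from 276 to 180.4 CPM in the PBS pair of 22RV1 and from 189 to 144 CPM in the H2O2 pair, a log2 fold change of -0.50 ± 0.08 (adjusted p = 0.000134). In DU145 it went from 389.5 to 376 CPM and from 422 to 419 CPM (-0.03 ± 0.08), and the difference between the lines passed (-0.47 ± 0.11, adjusted p = 0.0178), as it did for no other member. That difference was lost without the 22RV1 PBS pair (adjusted p = 0.0711), without the DU145 H2O2 pair (adjusted p = 0.153) and without the DU145 PBS pair (adjusted p = 0.101). Of all genes, 0.986% were called higher and 1.1% lower in that test.

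NQO1 was lower in both 22RV1 PAGE4 libraries than in the vector library of the same treatment (-0.43 ± 0.09, adjusted p = 0.00299), by a log2 ratio of -0.65 with PBS (95% counting interval -0.76 to -0.54) and -0.22 with H2O2 (-0.29 to -0.15). GCLM was at -0.42 ± 0.09 (adjusted p = 0.00520) and ME1 at -0.56 ± 0.14 (adjusted p = 0.0142). TXN was at -0.30 ± 0.07 (adjusted p = 0.0166) and GSR at -0.28 ± 0.07 (adjusted p = 0.0250). TXN was at 151 CPM in vector and 123 CPM in PAGE4 cells of 22RV1 with PBS and at 128 and 103 CPM with H2O2, against 394, 419, 389 and 409 CPM in the same order in DU145. GSR was at 325 and 276 CPM in 22RV1 with PBS and at 329.9 and 265 CPM with H2O2, against 442, 415, 369 and 361 CPM in DU145.

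OSGIN1 and ABHD4 had larger ratios in the H2O2 pair than in the PBS pair of 22RV1. The OSGIN1 ratio was 0.01 with PBS and -0.80 with H2O2 (interval -0.90 to -0.70), and its fitted value was -0.47 ± 0.13 (adjusted p = 0.0402). The ABHD4 ratio was -0.16 with PBS (interval -0.29 to -0.03) and -0.65 with H2O2, and its fitted value was -0.42 ± 0.11 (adjusted p = 0.0183). AKR1C1 was lower in all 4 PAGE4 libraries than in the matching vector libraries, at 4.21, 6.22, 2.03 and 4.04 CPM in the 22RV1 libraries and 14.7, 19.0, 9.07 and 15.3 CPM in the DU145 libraries in the order vector PBS, vector H2O2, PAGE4 PBS, PAGE4 H2O2.

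Each of these 10 calls was lost under at least 1 alternative. Without the 22RV1 H2O2 pair, 5 genes were lower and the calls of GCLM (-0.35), TKT (-0.19), GSR (-0.22), OSGIN1 (0.0045), TXN (-0.28) and ABHD4 (-0.17) were lost. Without the 22RV1 PBS pair, 12 were lower and the calls of NQO1 (-0.20), ME1 (-0.33) and AKR1C1 (-0.61) were lost.

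The study's methods name DESeq2 and a fold change over 1.5 between target and control group. Here that fold was applied to each pair of libraries. With a minimum of 10 normalized counts on average over the 4 libraries of a line, no member passed this in the same direction in all 4 pairs. In 22RV1 with PBS, HMOX1 (1.82-fold) and MAFF (1.58-fold) were higher in PAGE4 cells and NQO1, GCLC, SRXN1, ME1 and AKR1C1 lower, of 40 members with enough counts. Of all genes, 8.52% were higher and 11.5% lower. In 22RV1 with H2O2, AKR1C3 was higher and HMOX1, OSGIN1, ABCC3, MAFF, ABHD4 and AKR1C1 were lower, against 11.3% higher and 12.2% lower of all genes. DU145 had SRXN1 and AKR1B10 higher and AKR1C1 lower with PBS (7.73% higher and 7.89% lower of all genes), and AKR1B10 higher and GPX2 lower with H2O2 (7.28% and 8.22%). SRXN1 had 582 counts in DU145 PAGE4 cells with PBS and 153 in vector cells, a ratio of 3.85-fold, and with H2O2 it had 393 and 357 counts.

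**Figure D5:**
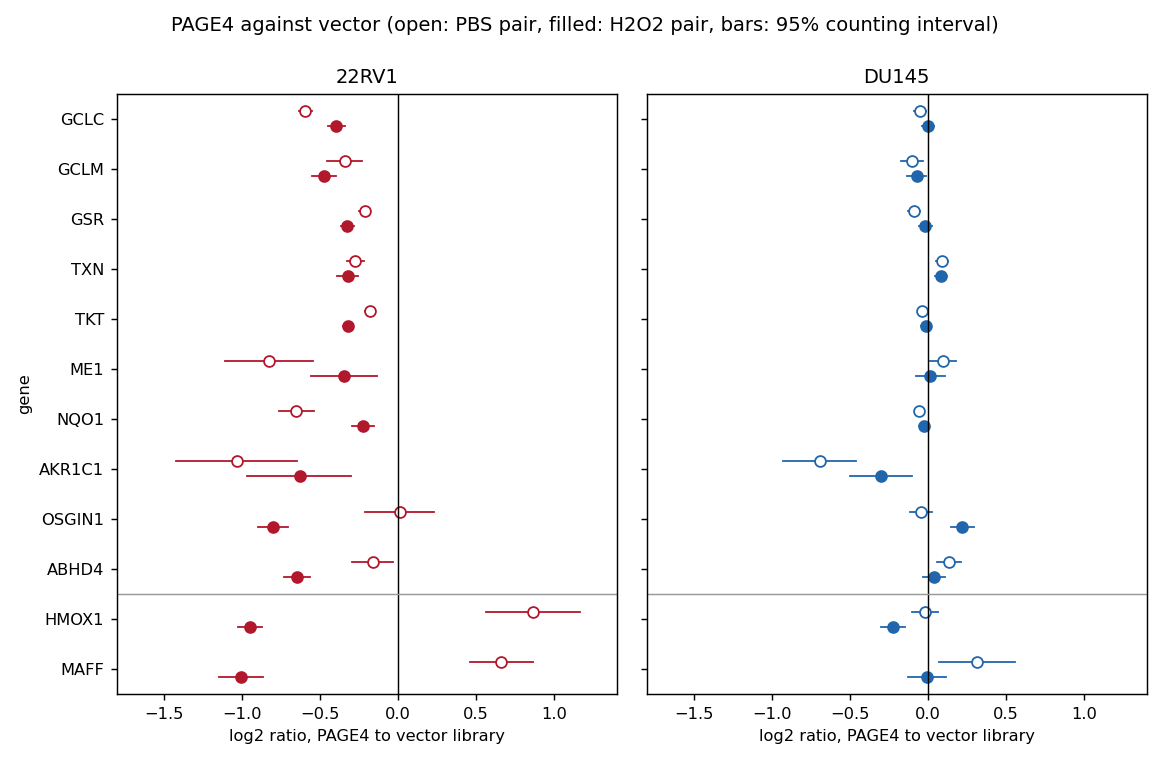
Log2 ratio of the PAGE4 to the vector library in 22RV1 (left) and DU145 (right) for the 10 genes lower in 22RV1 PAGE4 cells and, under the line, HMOX1 and MAFF, with PBS pairs open, H2O2 pairs filled and bars for 95% intervals of counting error only. HMOX1 and MAFF lie right of 0 with PBS and left of 0 with H2O2 in 22RV1, at 0.86 and -0.95 for HMOX1 and 0.66 and -1.004 for MAFF.

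By edgeR's test the response to H2O2 differed between PAGE4 and vector cells for HMOX1 and MAFF, with the lower response in PAGE4 cells. Of all genes tested, 0.101% were called lower and 0.0649% higher. In 22RV1 the H2O2 to PBS ratio of HMOX1 was 40.8-fold in vector cells (log2 5.35, interval 5.12 to 5.59) and 11.6-fold in PAGE4 cells (log2 3.54, interval 3.35 to 3.74). In DU145 the log2 ratios of HMOX1 were 0.50 and 0.30. The fitted difference over both lines, PAGE4 minus vector, was -0.86 ± 0.15 (adjusted p = 6.47e-05). For MAFF in 22RV1 the log2 ratio was 2.33 with the vector and 0.67 with PAGE4, and it was 2.22 and 1.90 in DU145, a fitted difference of -0.996 ± 0.21 (adjusted p = 0.00302). This fit has 1 residual degree of freedom, and DESeq2's Wald test called no member (adjusted p = 1 for both genes). Whether the size of the difference itself varied between the lines was not tested, since no library was left to estimate a spread. The standard errors and p-values of this fit rest on a spread pooled over all genes. They do not measure the spread of HMOX1 or MAFF alone.

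Beyond the 42, 56 further genes of the pathway were fixed as a list, of which 53 were tested. With H2O2, 16 rose and 16 fell in 22RV1 and 11 rose and 22 fell in DU145, with medians of -0.17 and -0.24 on the log2 scale. Of all genes tested, 11.6% rose and 13.9% fell in 22RV1, and 15.3% rose and 18.3% fell in DU145. The response was higher in 22RV1 for 17 and lower for 4, against 8.22% higher and 7.04% lower of all genes. SQSTM1, which binds KEAP1 and takes it to autophagy, rose in both lines, with a difference of 1.13 (adjusted p = 1.38e-08). CHAC1, which degrades glutathione, rose by 2.75 in 22RV1 and 1.31 in DU145, and SESN2, a stress-induced sestrin, by 2.75 and 2.29. With PBS, 20 of the 53 were higher and 26 lower in 22RV1 than in DU145, against 30.7% higher and 27.8% lower of all genes. FTL, the ferritin light chain, was on the lower side (-3.28).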

How the data were processed

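Bulk RNA-seq of 8 libraries, 1 per condition, is held as raw counts per gene symbol in the deposited tables, 1 for each line. Per the submitters' processing notes, the authors used HISAT2 2.1.0 on GRCh38 and featureCounts 1.6.0. The strand setting is not given in the sources used here. Here, counts of all 8 libraries went into edgeR 4.0.16 (R 4.3.3), with TMM scaling, filterByExpr and its quasi-likelihood test, adjusted after Benjamini-Hochberg over all genes tested (limit 0.05). H2O2 effects had the 4 cultures as blocks and PAGE4 effects the 4 pairs, with 2 residual degrees of freedom, 3 for the common PAGE4 effect and 1 for H2O2 by PAGE4. The lines were compared in their PBS libraries. The standard error (±) is the size of the log2 fold change divided by the square root of F. Ratios of 2 libraries used DESeq2 1.42.0 size factors, with 95% Clopper-Pearson intervals that cover counting error only. Alternatives were other size factors, no filter, DESeq2's Wald test, blocking on the line only, and pairs left out. The tests were checked on simulated counts with the same spread for every gene and with changes larger than most of those found here. That check does not cover smaller changes or genes with a wider spread. Overlaps of gene models come from GENCODE 44. Members and lists were chosen with earlier results of these data known. By the rule used, values in every library are shown for the regulators, the 15 largest H2O2 changes, the members called for PAGE4 and the 5 largest line differences. Values in every library for BLVRB and IDH1, and those of GSTM3 in 22RV1, were added after the values were seen.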

Additional observations from a re-analysis of the deposited data

Results flagged for a closer look

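For 27 genes the effect of H2O2 differed between the lines by the interaction contrast of edgeR's quasi-likelihood test. The values here are that difference, 22RV1 minus DU145, on the log2 scale. The widest were HMOX1 4.05, SRXN1 2.86, OSGIN1 2.71, ABCC3 2.42, NQO1 2.12, AKR1C2 1.90, GPX2 1.86, TXNRD1 1.44. The next were ABHD4 1.41, EPHX1 1.32, ME1 1.31, SLC7A11 1.30, KEAP1 1.23, GCLM 1.09, ABCC2 0.87, PIR 0.78, TKT 0.77. The smallest positive ones were MGST1 0.77, BLVRB 0.75, UGDH 0.74, GSTA4 0.69, CBR1 0.66, ABCC1 0.64, SLC48A1 0.55, TRIM16L 0.48. The differences of SRXN1, GSTM3, GSTA4, PIR, SLC48A1, TRIM16L and GPX2 lost their call with a pair left out or with DESeq2's Wald test. On the negative side were GCLC -0.57 and GSTM3 -0.79. The GCLC call was lost with the cell line alone as the block (-0.59, adjusted p = 0.192). For GCLC the effect of PAGE4 differed as well, at -0.47 for 22RV1 minus DU145. By edgeR's test, and not by DESeq2's Wald test, the effect of H2O2 differed between the constructs, PAGE4 minus vector, for HMOX1 at -0.86 and for MAFF at -0.996.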

How the results depend on the processing

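Among the members called for H2O2, 21 of 30 in 22RV1, 9 of 22 in DU145 and 19 of 27 for the difference between the lines passed under every alternative, as did 35 of 36 for the lines with PBS. None of the 10 for PAGE4 in 22RV1, of the 1 for its line difference and of the 2 for H2O2 by PAGE4 did. The 35 for the lines with PBS include GSTP1 and AKR1B10, which entered that fit through DU145 only. With total counts 3 genes were lower with H2O2 in 22RV1 and 2 had a lower PAGE4 effect in 22RV1 than in DU145. Blocking on the line only left 3 lower with H2O2 in 22RV1, 3 higher and 8 lower in DU145, and 0 lower for the line difference of H2O2, for PAGE4 in 22RV1 and for the line difference of PAGE4. With no filter 4 were lower for the line difference of H2O2, 7 for that of PAGE4 and 3 for PAGE4 over both lines, and 1 was higher for PAGE4 in DU145. DESeq2 size factors made 1 higher for PAGE4 in 22RV1. DESeq2's Wald test made 1 lower for PAGE4 over both lines and 0 for H2O2 by PAGE4. What made these counts move was not tested, beyond the smaller number of libraries or genes in a setting. With 1 pair left out, the DU145 response to H2O2 had 3 to 11 genes higher and 8 to 15 lower, and the line difference 1 to 4 lower. PAGE4 in 22RV1 then had 0 to 2 higher and 5 to 12 lower, PAGE4 in DU145 0 to 1 higher, and its line difference 0 to 1 higher and 0 to 8 lower. OSGIN1 under PAGE4 in 22RV1 ranged from -0.78 to 0.0045 and so reversed without the H2O2 pair. The line comparison in the H2O2 libraries, chosen after seeing the data, had 5 higher. Of the pair ratios, a fold over 2 left 0 higher and 2 lower in 22RV1 with PBS, 0 and 1 with H2O2, 1 and 0 in DU145 with PBS and 0 and 0 with H2O2, and a mean of at least 50 counts left 1 higher in DU145 with PBS and 0 with H2O2. No fit of H2O2 by PAGE4 could be made with a pair left out. No paired analysis by replicate number was possible because the labels give no replicate numbers.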
